A study of Mus musculus with 61 samples.

Results

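Granins and prohormone processing enzymes make up the peptide-storing machinery of endocrine cells and neurons. Granins (Chga, Chgb, Scg2 and Scg3) are acidic proteins that fill the dense core granules in which peptide hormones are stored. On the way into and inside these granules, prohormones are cut at basic residues by the convertases Pcsk1 and Pcsk2, trimmed by carboxypeptidase E (Cpe) and, for many peptides, amidated at the C-terminus by Pam, while Scg5 (7B2) is a chaperone of Pcsk2 and Pcsk1n (proSAAS) an inhibitor of Pcsk1. The machinery is best known from the pituitary gland, where hormones such as proopiomelanocortin are processed, and from the peptidergic neurons of the hypothalamus.

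The genes were taken by name, and their probe sets were those annotated to exactly 1 of them. This gave 10 probe sets of the 45037 on the array for 9 of the 10 genes (Cpe had 2 probe sets), and Pcsk2 was not analysed here. Each gene was led by its probe set with the highest mean signal, and levels were compared between arrays within a probe set only.

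RNA from 5 dissected regions of wild-type male mice of 6 inbred strains was hybridised to 61 Affymetrix mouse genome 430 2.0 arrays, and all mice were 8 weeks old. The regions were the pituitary gland, hypothalamus, periaqueductal gray (pag), bed nucleus of the stria terminalis (bnst) and hippocampus, and the strains were FVB/NJ, C57BL/6J, A/J, 129S6/SvEvTac, DBA/2J and C3H/HeJ. Each of the 30 groups of strain and region had 2 arrays, except C3H/HeJ bnst with 3, and the replicates were independent samples. A pituitary array held the glands of 5 mice, a bnst array tissue of 2 or 3 mice, a hypothalamus or pag array tissue of 1 or 2 mice and a hippocampus array tissue of 1 mouse. The 129S6/SvEvTac mice came from another supplier than the other 5 strains, so strain and supplier cannot be told apart for them.

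The values are the deposited signals, background-corrected and globally scaled on a linear scale, with array means between 180 and 201 and replicate arrays that correlated with a median r of 0.993. The dissections were checked against marker genes. The summed signal of 7 pituitary hormone genes was 44820 to 63896 on the pituitary arrays, and 5 of 5 hypothalamic neuron markers, 5 of 5 hippocampal principal neuron markers and 2 of 2 serotonergic markers were higher in the hypothalamus, the hippocampus and the pag, each in its own region set against the others. Pituitary hormone signal also stood on brain arrays, where the same sum ran between 594 and 7846 (hypothalamus), 173 and 6405 (pag), 105 and 4322 (bnst) and 133 and 3060 (hippocampus). The 5 hypothalamic neuron markers were higher in the bnst too, and the bnst arrays further carried thalamic markers (4 of 4 higher) and choroid plexus markers, whose summed signal ran between 276 and 10055. Choroid plexus markers ran between 840 and 6524 on the hippocampus arrays. On the pituitary arrays the oligodendrocyte sum had a median of 315 and reached 4793 on a C3H/HeJ array. The hippocampal marker sum had a median of 327 on the hypothalamus arrays and reached 1237 in FVB/NJ. The part of these other tissues in the differences below was not tested except where a value is given. In bulk tissue, fewer cells of a type and less RNA per cell cannot be told apart.

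Upstream sequences of 4 genes are shown because these genes had the largest differences between the pituitary gland and the brain regions. They are the 110 bases before the start used in the RefSeq promoter sequences (build GRCm38.p6, on the strand of the gene), with capitals for the cAMP response element TGACGTCA and its 6-base part TGACGT.
Pcsk1 (chr13:75089747-75089856, plus strand): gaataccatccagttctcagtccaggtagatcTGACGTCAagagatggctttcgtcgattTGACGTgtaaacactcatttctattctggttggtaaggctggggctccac
Chga (chr12:102554831-102554940, plus strand): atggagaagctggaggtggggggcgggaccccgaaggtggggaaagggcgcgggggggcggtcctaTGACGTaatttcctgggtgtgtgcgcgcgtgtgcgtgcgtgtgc
Chgb (chr2:132781532-132781641, plus strand): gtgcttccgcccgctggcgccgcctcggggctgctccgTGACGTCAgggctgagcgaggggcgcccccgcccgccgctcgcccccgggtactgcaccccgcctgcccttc
Scg2 (chr1:79440027-79440136, minus strand): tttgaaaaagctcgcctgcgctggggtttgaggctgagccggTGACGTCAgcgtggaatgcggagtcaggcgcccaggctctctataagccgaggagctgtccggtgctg

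For Chga, Chgb and Scg2 this start is the outer end of the annotated gene, while for Pcsk1 it lies inside the annotated gene, whose first base is at chr13:75089420, so that the stretch shown is within the gene. Counted from the start used, the full element began 78 bases before it in Pcsk1, 72 in Chgb and 68 in Scg2. Over windows of 250 bases before and 50 after the start, searched on both strands, it was found in 3 of the 9 genes that had a window (Pcsk2 among them, Cpe not) and in 1.79% of all 32851 windows. The 6-base part, which every full element contains, was found in 5 of these 9 and in 7.51% of all windows. Beside the genes above it stood in Scg5, 175 bases before and 39 bases after the start, and in Chga it began 44 bases before the start. The motif was chosen after the expression values had been seen, and a match is a description of the sequence only.

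Which of the 5 regions carried most of this machinery was the first comparison. In the pituitary gland 8 of the 9 genes were higher than in the mean of the other 4 regions, and 1, Cpe, was not called. The convertase Pcsk1 had the largest difference, followed by the granins Chga, Chgb and Scg2. Over all probe sets tested, 40.6% were called higher in the pituitary gland and 25.4% lower (limma, Benjamini-Hochberg adjusted p under 0.05, 44065 probe sets tested). The median log2 difference of the 9 genes was 1.18, beside 0.10 over all probe sets. That shift of all probe sets was 0.01 when the arrays were scaled to 1 median, and 8 of the 9 differences then kept their sign, while that of Cpe was -0.12 and again not called.

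**Figure D1:**
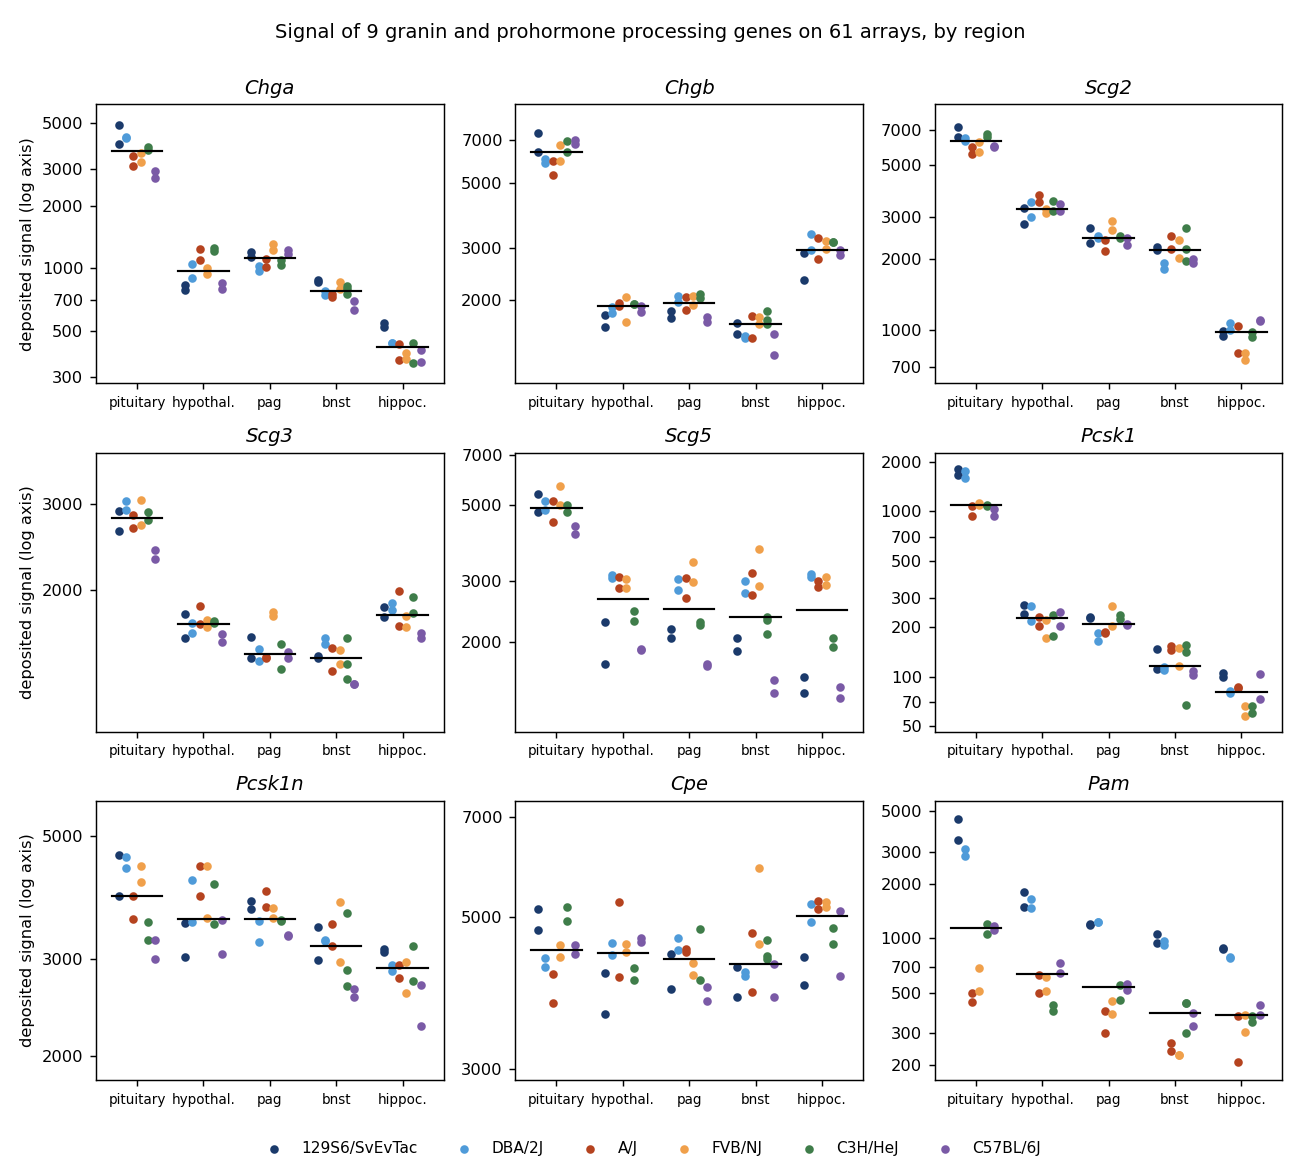
Deposited signal of the lead probe set of each gene (log axis, 1 point per array, coloured by strain) in the 5 regions; the black line is the median over the 12 arrays of a region (13 in bnst). The 12 pituitary arrays lie above all others for Chga, Chgb, Scg2, Scg3, Scg5 and Pcsk1, and the medians of Cpe lie between 4262 (bnst) and 5010 (hippocampus).

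Among the granins, Chga (chr12:102554941-102565027), whose protein is a marker of endocrine cells, had signals of 2713, 3642 and 4906 (lowest, median and highest) on the 12 pituitary arrays, against 349, 827 and 1300 on the other 49 arrays. The ranges did not overlap, and the difference was 2.23 ± 0.03 on the log2 scale (SE), or 4.69-fold (limma adjusted p = 1.72e-36). Chgb (chr2:132781642-132795079), the second chromogranin, had 5326, 6362 and 7385 in the pituitary gland, against 1308, 1911 and 3349 elsewhere. Its difference was 1.65 ± 0.03 (3.14-fold). Scg2 (chr1:79434366-79440026), the precursor of the peptide secretoneurin, had 5561, 6288 and 7206 in the pituitary gland, against 748, 2342 and 3730 elsewhere. It differed by 1.63 ± 0.04 (3.10-fold), nearly as much as Chgb. Scg3 (chr9:75643366-75685959), which binds Chga at the granule membrane, had 2323, 2818 and 3060, against 1283, 1599 and 1993, a smaller step of 0.78 ± 0.03 (1.72-fold). All 4 granins were thus above every brain array, by steps that differed from gene to gene.

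Of the convertase and its partners, Pcsk1 (chr13:75089420-75134861), which makes the first cuts in proopiomelanocortin, had 935, 1095 and 1809 on the pituitary arrays, against 58.2, 155 and 272 on the others. This was a difference of 3.08 ± 0.07, or 8.44-fold (adjusted p = 4.71e-30), the largest of the 9. Scg5 (chr2:113776313-113829091) had 4104, 4913 and 5669 in the pituitary gland, against 1371, 2460 and 3721, a difference of 1.03 ± 0.03 (2.04-fold) with no overlap. Pcsk1n (chrX:7919822-7924410), in contrast, overlapped between the regions, with 2996, 3896 and 4628 in the pituitary gland, against 2266, 3300 and 4421. Its difference of 0.22 ± 0.04 was called (adjusted p = 1.04e-05), but with the arrays scaled to 1 median it was 0.08 (adjusted p = 0.229) and after quantile normalization 0.06 (adjusted p = 0.106).

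The enzymes that act after the convertases behaved differently from each other. Cpe (chr8:64592542-64693109), which removes the basic residues left by the cut, had 3737, 4478 and 5164 in the pituitary gland, against 3612, 4409 and 5900 elsewhere. The difference was 0.02 ± 0.04 (adjusted p = 0.578), and after quantile normalization it was -0.28 (adjusted p = 6.62e-13). The other probe set of Cpe was dim (mean signal 56.4) and was not called either, at -0.06 ± 0.19. Pam (chr1:97821091-98095853) had 445, 1148 and 4555 in the pituitary gland, against 208, 503 and 1801, and differed by 1.18 ± 0.06 (2.27-fold, adjusted p = 4.21e-19). Its ranges overlapped, and both were wide, with the strains far apart in every region.

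The pituitary step was present within the strains. Taken strain by strain against the other 4 regions, Chga, Chgb, Scg2, Scg3, Scg5, Pcsk1 and Pam were called higher in the pituitary gland in 6 of 6 strains. Pcsk1n was called higher in 3 of 6 strains, at 0.44 ± 0.10 in DBA/2J, 0.36 ± 0.10 in 129S6/SvEvTac and 0.33 ± 0.10 in FVB/NJ. Cpe was called higher in 129S6/SvEvTac (0.29 ± 0.09) and lower in A/J (-0.24 ± 0.09). In these single strains between 23.3% and 32.7% of all probe sets were called higher and between 18.0% and 19.5% lower. Neuron markers went the other way: all 6 were lower in the pituitary gland, with a summed signal of 3663 to 5529 there and 13046 to 19137 on the brain arrays. Of 7 brain arrays with a pituitary hormone signal over 3000, 6 were left out in an alternative added after the data were seen, which kept 1 array in each group and so the second A/J hypothalamus array (5302). Without these 6 arrays the counts in the pituitary gland were again 8 higher and 0 lower.

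**Figure D2:**
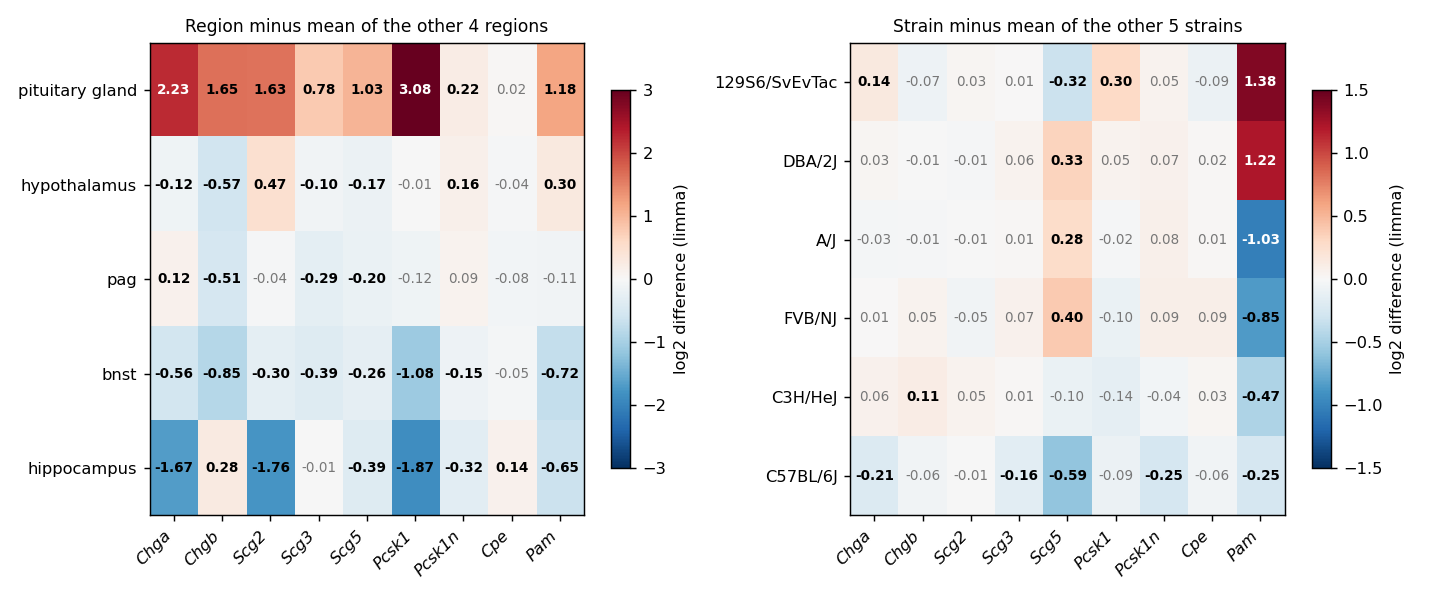
Log2 differences from the limma fit for each gene (columns), of regions against the mean over the 4 other regions (left) and of strains against the mean over the 5 other strains (right); bold values were called at an adjusted p under 0.05 and grey values were not. The pituitary row holds the largest values on the left, at 3.08 for Pcsk1 and 2.23 for Chga, and the Pam column those on the right, from -1.03 in A/J to 1.38 in 129S6/SvEvTac.

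Among the 4 brain regions the genes did not share 1 order. The hypothalamus had 3 genes higher and 4 lower than the mean of the other 4 regions (17.0% of all probe sets were called higher and 17.0% lower). That mean holds the pituitary gland, so a gene below it need not be low among the brain regions. Scg5 was among the 4 lower, though the hypothalamus had its highest level of the 4 brain regions. The other brain regions below were set against such a mean too. The 3 higher genes were Scg2 (0.47 ± 0.04), Pam (0.30 ± 0.06) and Pcsk1n (0.16 ± 0.04), and the largest fall was that of Chgb (-0.57 ± 0.03). With the arrays scaled to 1 median, Chgb alone stayed among the lower genes. The pag had 1 gene higher and 3 lower (22.2% and 21.2% of all probe sets). The higher one was Chga (0.12 ± 0.03), whose call was lost with the arrays scaled to 1 median (adjusted p = 0.285).

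The hippocampus had large differences in both directions. It had 2 genes higher and 6 lower, where 19.1% of all probe sets were called higher and 29.3% lower. Pcsk1 fell by 1.87 on the log2 scale, Scg2 by 1.76 and Chga by 1.67, and the hippocampal signals of Chga (349, 417 and 547) and Scg2 (748, 989 and 1109) lay below those of every other array. Chgb, however, was higher there (0.28 ± 0.03), with 2337, 2972 and 3349 on the hippocampus arrays, against 1308 to 2108 on the arrays of the other 3 brain regions. The second gene called higher was Cpe (0.14 ± 0.04, adjusted p = 0.00126). The bnst had 0 genes higher and 8 lower, with 16.0% and 22.6% of all probe sets called. Pcsk1 (-1.08 ± 0.07) and Chgb (-0.85 ± 0.03) had its largest falls, and the call of Pcsk1n (-0.15 ± 0.04) was lost with the arrays scaled to 1 median (adjusted p = 0.298).

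The order of the levels for single genes shows where each stood. Below the pituitary gland, Chga was second in the pag, then came the hypothalamus, the bnst and the hippocampus, and all neighbours in this order differed. Scg2 ran from the hypothalamus through pag and bnst to the hippocampus, and again all neighbours differed. The second place was held by the hippocampus for Chgb, 0.63 ± 0.04 above the pag (adjusted p = 1.83e-15), and for Scg3, which there was not shown to differ from the hypothalamus (0.07 ± 0.03, adjusted p = 0.0841). For Pcsk1 the hypothalamus and the pag were not shown to differ (0.09 ± 0.09), and both lay above the bnst and the hippocampus. The 4 brain levels of Scg5 were not shown to differ between neighbours, with steps of 0.03, 0.04 and 0.11. Pam stepped down from the hypothalamus to the pag and on to the hippocampus, which was not shown to differ from the bnst. Pcsk1n was not shown to differ between pituitary gland, hypothalamus and pag, and no neighbours in the order of Cpe were shown to differ.

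Taken region by region, the pituitary gland was higher than the hypothalamus for 7 of the 9 genes (36.6% of all probe sets, with 23.7% lower) and than the pag for 7 (34.6%, with 25.5% lower), and Pcsk1n and Cpe were the other two. It was higher than the bnst for 8 (38.5%, with 23.5% lower) and than the hippocampus for 8 (39.2%, with 23.5% lower), and no gene was lower in any of these 4 comparisons. The hypothalamus was higher than the bnst for 7 genes and lower for 0 (13.5% and 9.52%), and the pag was higher than the bnst for 6 and lower for 0 (13.8% and 9.26%). With the arrays scaled to 1 median the pag was higher than the bnst for 3, and after quantile normalization it was lower for 1. Between hypothalamus and pag, 3 genes were higher in the hypothalamus (Scg2, Scg3 and Pam) and 1, Chga, was lower (12.9% and 13.3%). Against the hippocampus the genes split. The hypothalamus was higher for 6 and lower for 2, Chgb and Cpe (21.3% and 15.6%), the pag higher for 6 and lower for 3 (25.0% and 17.2%), and the bnst higher for 4 and lower for 3 (18.2% and 15.5%), where Chgb, Scg3 and Cpe were the 3 lower genes in both.

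In the regression on strain, region and their interaction that the methods describe, 8 of the 9 genes were region-specific (region p under 0.01 and not larger than the strain p), beside 60.6% of all probe sets, and 1, Pam, was strain-specific, beside 8.87%. Region took 97.7% of the variance of Scg2, 97.2% of Chgb, 94.2% of Chga, 92.0% of Scg3 and 90.5% of Pcsk1. It took 73.3% of Scg5, 49.1% of Pcsk1n and 17.2% of Cpe. For Cpe the interaction (43.7%) and the replicates of a group (28.0%) took larger shares than region, and its dim probe set was neither region-specific nor strain-specific. For Pam, strain took 43.8%, region 30.1% and the interaction 24.1%, while the spread between replicates of a group took 1.93%. These are shares of the variance of the linear signal. On log2 values strain took 61.5% for Pam, region 30.7% and the interaction 5.54%.

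Differences between the strains were the second comparison. Of the 9 genes, 7 differed between the 6 strains over the 5 regions (limma F test, adjusted p under 0.05, called for 39.2% of all probe sets). Scg2 (adjusted p = 0.678) and Cpe (adjusted p = 0.1) were not called, though Cpe was called without the 6 brain arrays left out for their pituitary hormone signal (adjusted p = 0.000722). The call of Chgb (adjusted p = 0.049) was lost under 5 of 9 other settings and without any 1 of 41 arrays (adjusted p up to 0.109). That of Pcsk1 (adjusted p = 0.0208) was lost without any 1 of 3 arrays of 129S6/SvEvTac (the first of bnst or hypothalamus or the second of the pituitary gland, adjusted p up to 0.0783). Within single regions the F test was called for 5 of the 9 genes in the pituitary gland (31.9% of all probe sets), 4 in the hippocampus (10.6%), and 3 each in the hypothalamus (10.9%), the pag (13.3%) and the bnst (19.3%). Pam was among them in all 5 regions. Of 270 comparisons of 1 strain with the other 5 in 1 region, 29 were called higher and 28 lower, where between 0.806% and 8.93% of all probe sets were called higher and between 1.11% and 6.86% lower. In all, 24 of these 57 calls held under all 9 other settings and without any 1 of the 61 arrays.

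Pam, the only enzyme known to make the C-terminal amide of peptides such as vasopressin and oxytocin, split the strains most widely. Set against the 5 other strains, it was higher in 129S6/SvEvTac (1.38 ± 0.07, adjusted p = 2.14e-18) and in DBA/2J (1.22 ± 0.07, adjusted p = 8.38e-17). It was lower in A/J (-1.03 ± 0.07), FVB/NJ (-0.85 ± 0.07), C3H/HeJ (-0.47 ± 0.06) and C57BL/6J (-0.25 ± 0.07). Over all probe sets, 9.93% were called higher in 129S6/SvEvTac and 6.0% in DBA/2J, and 7.36% were called lower in A/J, 5.32% in FVB/NJ and 5.28% in C3H/HeJ.

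On the pituitary arrays Pam had 3478 and 4555 in 129S6/SvEvTac and 2845 and 3106 in DBA/2J. The other strains had 1198 and 1053 (C3H/HeJ), 1178 and 1119 (C57BL/6J), 511 and 687 (FVB/NJ) and 499 and 445 (A/J). The means of 129S6/SvEvTac and A/J there were 8.52-fold apart. In the hypothalamus Pam had 1499 and 1801 in 129S6/SvEvTac and 1649 and 1467 in DBA/2J. The other strains had 735 and 642 (C57BL/6J), 512 and 615 (FVB/NJ), 503 and 629 (A/J) and 399 and 430 (C3H/HeJ). In both regions 129S6/SvEvTac and DBA/2J lay above all other arrays.

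The other 3 regions had the same 2 strains on top. In the pag 129S6/SvEvTac and DBA/2J together ran from 1190 to 1230, against 302 to 560 in the other 4 strains. In the bnst they ran from 921 to 1053, against 227 to 443, and in the hippocampus from 782 to 887, against 208 to 431. The means of these 2 sets of strains were 4.18-fold apart in the pituitary gland and between 2.39-fold (hippocampus) and 3.07-fold (bnst) apart in the brain regions. The pair of strains was chosen after the values were seen, so no test was made of it. Tested singly within each region against the other 5 strains, 129S6/SvEvTac and DBA/2J were each called higher in 5 of 5 regions, and none of these 10 calls was lost under 9 other settings or with any 1 of the 61 arrays left out. A/J and FVB/NJ were each called lower in 5 of 5 regions, of which 3 and 2 kept their call throughout, and C3H/HeJ was called lower in the hypothalamus (-1.10 ± 0.15). In that test 1.5% of all probe sets were called lower. The calls of A/J and FVB/NJ in the hypothalamus were lost without either array of the group (adjusted p up to 0.474 and 0.452), that of A/J in the hippocampus and that of FVB/NJ in the pag without the second array of the group (adjusted p = 0.532 and 0.169), and that of FVB/NJ in the hippocampus without any of 41 arrays. Over the regions together, the lower value of C57BL/6J was no longer called after quantile normalization (-0.17, adjusted p = 0.0706). Pam was read by 1 probe set, as was each member but Cpe, so that no strain difference could be set beside a second probe set of the same gene. Differences in sequence between the strains under the probes, which can change a signal, were not tested for Pam, Scg5 or any other member.

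**Figure D3:**
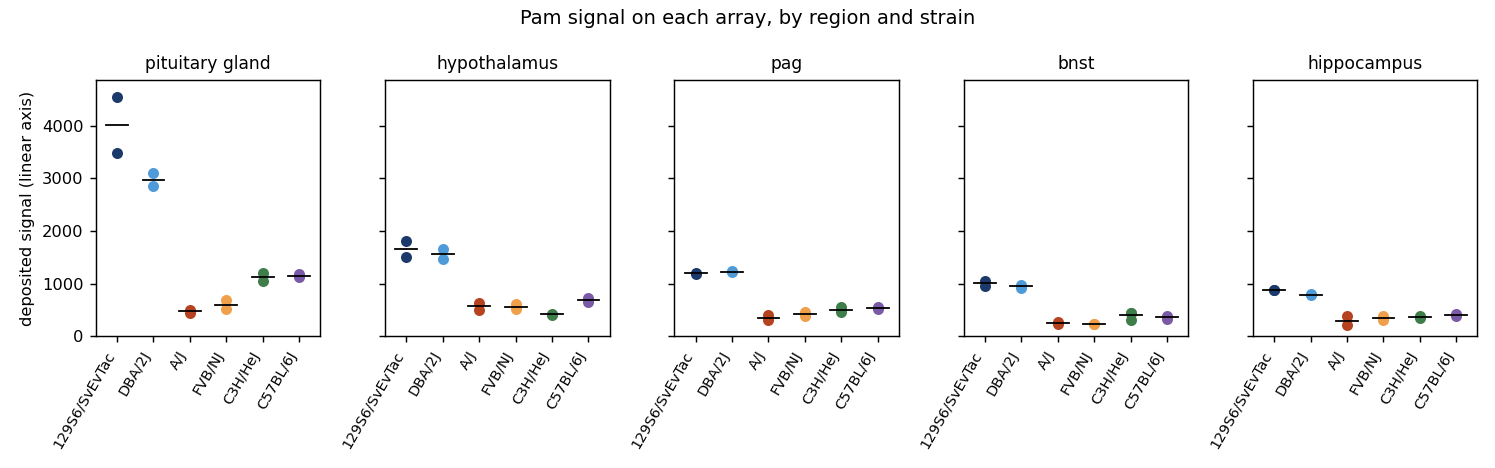
Pam signal on each array (linear axis from 0) for the 6 strains in each of the 5 regions; the line is the mean of a group of 2 arrays (3 for C3H/HeJ in bnst). The 129S6/SvEvTac and DBA/2J points lie above those of the other 4 strains in all 5 regions, and highest in the pituitary gland, at 2845 to 4555.

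The strain differences of Pam depended on the region (interaction over the 6 strains and 5 regions, limma adjusted p = 0.0018). Between pituitary gland and hypothalamus alone the dependence on strain was not tested, and the values of each strain are given. The difference was 1.44 ± 0.19 in C3H/HeJ, 1.28 ± 0.19 in 129S6/SvEvTac, 0.93 ± 0.19 in DBA/2J and 0.74 ± 0.19 in C57BL/6J, all called. It was 0.08 ± 0.19 in FVB/NJ (adjusted p = 0.822) and -0.26 ± 0.19 in A/J (adjusted p = 0.344), where the pituitary level was not shown to differ from the hypothalamic one. Pituitary hormone signal on the hypothalamus arrays was 5302 and 5719 in A/J, against 594 and 7846 in C57BL/6J and 1010 to 2819 in the remaining strains. Without the 6 brain arrays left out for that signal, which leaves the A/J array at 5302 in, the interaction had an adjusted p of 0.0117.

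Scg5, the chaperone that Pcsk2 needs to mature, also split the strains, but along another line. It was lower in C57BL/6J (-0.59 ± 0.04, adjusted p = 6.57e-15) and 129S6/SvEvTac (-0.32 ± 0.04) and higher in FVB/NJ (0.40 ± 0.04), DBA/2J (0.33 ± 0.04) and A/J (0.28 ± 0.04). In the hippocampus A/J had signals of 2893 and 3014, DBA/2J of 3092 and 3146, and FVB/NJ of 3091 and 2935. There C3H/HeJ had 2051 and 1939, 129S6/SvEvTac 1422 and 1582 and C57BL/6J 1475 and 1371. Over the 4 brain regions together, the 24 arrays of A/J, DBA/2J and FVB/NJ ran from 2688 to 3721, against 1371 to 2460 on the 25 arrays of the other 3 strains, and the ranges did not overlap. As for Pam, this split was chosen after the values were seen.

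In the pituitary gland the strains were closer for Scg5, and the same 2 sets of strains overlapped, with 4450 to 5669 in A/J, DBA/2J and FVB/NJ, against 4104 to 5392 in the others. The highest and lowest strain means were 1.26-fold apart there, beside 1.64-fold (hypothalamus) to 2.23-fold (bnst) in the brain regions. The F test over the strains was called in each of the 4 brain regions (largest adjusted p = 1.3e-06, in the hypothalamus) and not in the pituitary gland (adjusted p = 0.158). The interaction was called (adjusted p = 0.000431), except with the arrays scaled to 1 median (adjusted p = 0.127). C57BL/6J was called lower in 5 of 5 regions, at -0.82 ± 0.08 (bnst), -0.77 ± 0.08 (hippocampus), -0.62 ± 0.08 (pag), -0.48 ± 0.08 (hypothalamus) and -0.24 ± 0.08 (pituitary gland). Of these, the 4 brain calls held under the 9 other settings and without any 1 array, and the pituitary call was lost without any of 7 arrays (adjusted p up to 0.333), after quantile normalization (adjusted p = 0.124) and without a trend in eBayes (adjusted p = 0.0557). The calls of the other strains within regions were less firm. Those that held throughout were 0 of 3 in A/J, 0 of 3 in FVB/NJ, 1 of 4 in DBA/2J and 1 of 3 in 129S6/SvEvTac.

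**Figure D4:**
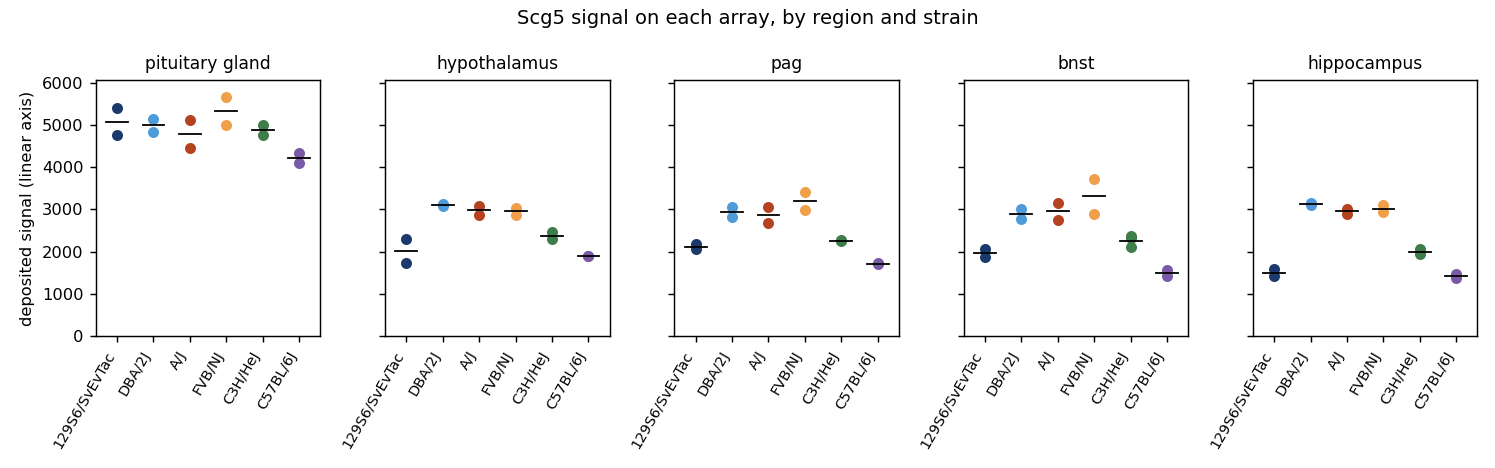
Scg5 signal on each array (linear axis from 0) for the 6 strains in each of the 5 regions; the line is the mean of a group. In the 4 brain regions the A/J, DBA/2J and FVB/NJ points (2688 to 3721) lie above those of the other 3 strains (1371 to 2460), and in the pituitary gland the 2 sets overlap.

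In the strains with the most pituitary Pam, a pair chosen after the values were seen, Pcsk1 and Chga were high in that gland too. Pcsk1 had 1652 and 1809 on the pituitary arrays of 129S6/SvEvTac and 1586 and 1748 on those of DBA/2J, against 935 to 1123 in the other 4 strains. It was called higher in 129S6/SvEvTac (0.59 ± 0.17, adjusted p = 0.021) and DBA/2J (0.53 ± 0.17, adjusted p = 0.0456), where 5.36% and 3.67% of all probe sets were called. In the brain regions the arrays of these 2 strains overlapped the rest for Pcsk1, with 79.8 to 272, against 58.2 to 269. The interaction was not called on the log2 scale (adjusted p = 0.109), except without the second or the third C3H/HeJ bnst array (adjusted p down to 0.0019), and on the linear scale of the methods regression its p was 5.06e-14. The Pcsk1 call in 129S6/SvEvTac was lost without either of its 2 pituitary arrays (adjusted p up to 0.274) and with the arrays scaled to 1 median (adjusted p = 0.052). That in DBA/2J was lost without any of 20 arrays (adjusted p up to 0.382), with no filter (0.0519), after quantile normalization (0.0814) and without a trend in eBayes (0.0543).

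For Chga the pituitary signals were 3940 and 4906 in 129S6/SvEvTac and 4270 and 4226 in DBA/2J, against 2713 to 3837 in the other 4 strains. In the hippocampus these 2 strains did not overlap the rest either (436 to 547, against 349 to 435), while in the hypothalamus, pag and bnst they did. The difference was 0.34 ± 0.08 for 129S6/SvEvTac and 0.28 ± 0.08 for DBA/2J (adjusted p = 0.00229 and 0.0142). The call in 129S6/SvEvTac was lost without its second pituitary array (adjusted p = 0.399), with the arrays scaled to 1 median (adjusted p = 0.2) and after quantile normalization (0.15, adjusted p = 0.102). That in DBA/2J was lost without either of its 2 arrays (adjusted p up to 0.176). The lowest pituitary Chga was in C57BL/6J, with 2713 and 2935 (-0.43 ± 0.08, adjusted p = 0.000137). The summed pituitary hormone signal was 50945 and 63896 in 129S6/SvEvTac, 48015 to 52304 in DBA/2J and 44820 to 58552 in the other 4 strains, so it overlapped between the sets.

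Chga had the smallest interaction p of the 9 genes (adjusted p = 3.52e-05), and it was called under all 9 other settings (largest adjusted p = 0.0024, arrays scaled to 1 median). Of all probe sets 11.3% had a called interaction, beside 4 of the 9 genes: Chga, Scg5, Pam and, at an adjusted p of 0.045, Scg2. In the hypothalamus the order of the strains for Chga was another than in the pituitary gland. C3H/HeJ had 1203 and 1252 and A/J 1092 and 1233, while C57BL/6J had 795 and 847 and 129S6/SvEvTac 827 and 789. The differences there were 0.39 ± 0.08 in C3H/HeJ, 0.29 ± 0.08 in A/J, -0.31 ± 0.08 in C57BL/6J and -0.34 ± 0.08 in 129S6/SvEvTac, and each of the 4 calls was lost without 1 of the 2 arrays of its group (adjusted p up to 0.141, 0.743, 0.405 and 0.25 in that order of strains). With the arrays scaled to 1 median those of C3H/HeJ, A/J and C57BL/6J were lost (adjusted p = 0.171, 0.245 and 0.25), and without the 6 brain arrays left out for pituitary hormone signal those of A/J and C57BL/6J (adjusted p = 0.074 and 0.369). So 129S6/SvEvTac was called higher for Chga in the pituitary gland and the hippocampus (0.43 ± 0.08, with 547 and 520, against 349 to 439 in the other strains) and lower in the hypothalamus. Of these the hippocampal call held under the 9 settings and without any 1 array. The 2 C57BL/6J hypothalamus arrays differed widely in pituitary hormone signal, at 7846 and 594, and the part of this in the Chga differences was not tested.

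C57BL/6J was the strain with the most genes lower. It had 0 of 9 higher and 5 lower, where 11.7% of all probe sets were called higher and 10.4% lower. Besides Scg5 (-0.59) and Pam (-0.25) these were Pcsk1n (-0.25 ± 0.04, adjusted p = 6.04e-05), Chga (-0.21 ± 0.03) and Scg3 (-0.16 ± 0.03). Within single regions Pam was called lower in C57BL/6J in 0 of 5. Its mean over the arrays of that strain (628) was above those of C3H/HeJ (545), FVB/NJ (430) and A/J (386). On the C57BL/6J pituitary arrays Pcsk1n had 2996 and 3250, against 3241 to 4628 in the other strains, and Scg3 2323 and 2419, against 2641 to 3060. There Pcsk1n was called at -0.36 ± 0.10 and Scg3 at -0.27 ± 0.06, and both calls were lost without the first of the 2 arrays (adjusted p = 0.208 and 0.0913) and after quantile normalization (-0.17 for Pcsk1n, adjusted p = 0.131, and -0.11 for Scg3, adjusted p = 0.112). The summed signal of 6 neuron markers was also lowest on these arrays, at 3663 and 3871, against 4173 to 5529 on the other pituitary arrays, and its part in these differences was not tested. In the other strains fewer genes were called. In 129S6/SvEvTac 3 were higher (Pam, Pcsk1 and Chga) and 1, Scg5, lower, where 8.8% of all probe sets were lower. The call of Chga in that strain was lost with the arrays scaled to 1 median (0.11, adjusted p = 0.246). In DBA/2J 2 were higher, Pam and Scg5, and 0 lower (7.5% of all probe sets lower). A/J and FVB/NJ had Scg5 higher (7.74% and 5.68% of all probe sets higher) and Pam lower, and C3H/HeJ had Chgb higher (5.23%), a call lost under 4 other settings, and Pam lower.

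The genes around this machinery were read from 3 lists. Of 20 other convertases and processing enzymes measured, 15 were higher in the pituitary gland, 1 lower and 4 not called, with a median difference of 0.38, beside 40.6% of all probe sets higher and 25.4% lower. The largest rises were those of Cpxm2, a carboxypeptidase-like protein (4.08), Pcsk6 (3.41), a convertase of the secretory pathway, and Atp7a (1.86), which loads copper into enzymes such as Pam. Pcsk6 averaged 1058 on the pituitary arrays, against 101 elsewhere. Only Cpd, a carboxypeptidase of the trans-Golgi network, was lower (-0.55). With the arrays scaled to 1 median these 4 differences kept their direction, while those of Pcsk4, Pcsk5 and Cpm, not called, changed sign.

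Of 29 dense core vesicle genes, 15 were higher in the pituitary gland, 13 lower and 1 not called (median 0.19), beside the same 40.6% and 25.4% of all probe sets. The higher ones were led by Sytl4 (4.25) and Rph3al (3.27), which bind Rab27 and Rab3 proteins on secretory granules, and by Nucb2 (3.57), the precursor of nesfatin. The lower ones were led by the neuronal granin-like Vgf (-4.57), Rab26 (-3.49) and the vesicular monoamine transporter Slc18a2 (-2.56). Vgf averaged 58.8 in the pituitary gland, against 1099 elsewhere, a direction opposite to that of the 4 granins.

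Of 32 peptide precursors, the cargo of these granules, 12 were higher in the pituitary gland, 17 lower and 3 not called, with a median of -1.31, so that the share higher was near the 40.6% of all probe sets (25.4% were lower). Fshb (8.16), Cga (7.99) and Prl (7.69), hormone genes of the anterior lobe, led the higher ones, and Sst (-5.54), Cck (-4.72) and Tac1 (-4.60) led the neuropeptides that were lower. In the hypothalamus 21 of the 32 precursors were higher and 6 lower, beside 17.0% of all probe sets in each direction, and 3 of the 9 members were higher.

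**Figure D5:**
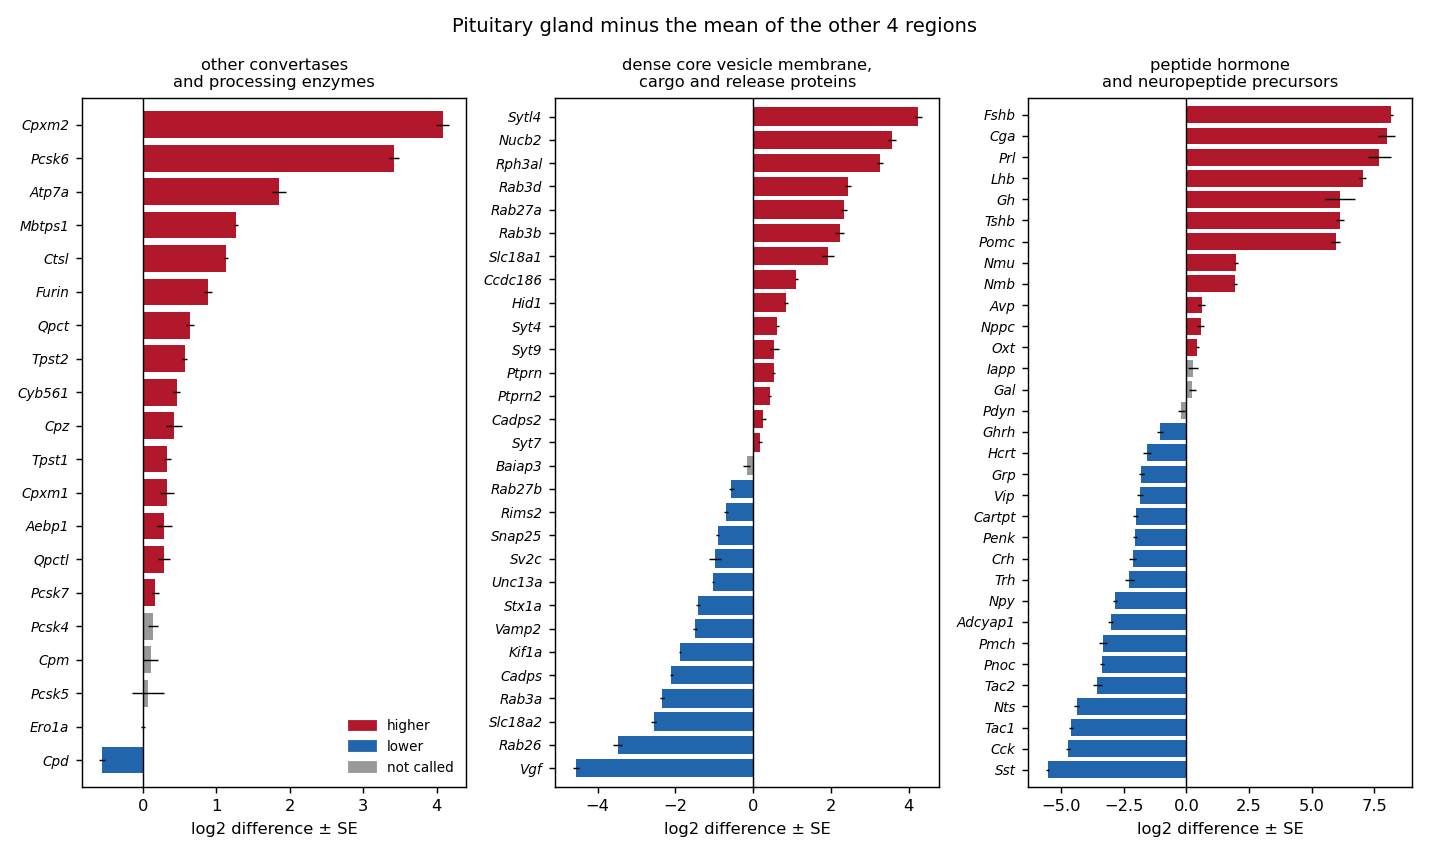
Log2 difference between the pituitary gland and the mean of the other 4 regions (bars, ± SE from the limma fit) for the measured genes of 3 lists; red was called higher, blue lower and grey not called. Of the processing enzymes 15 of 20 were called higher, while the vesicle genes (15 higher, 13 lower) and the precursors (12 higher, 17 lower) lie on both sides.

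The genes whose pattern over the 30 group means was most like that of each member were read as a description, since all share arrays and the step between pituitary gland and brain. For Pcsk1 these were Spcs1 (r = 0.98), Arfip1 (0.97) and Ssr4 (0.97), of which Spcs1 is a subunit of the signal peptidase and Ssr4 one of the translocon-associated complex. For Chga they were Srp68 (0.98), a protein of the signal recognition particle, H13 (0.97), the signal peptide peptidase, and Ctsl (0.97). Scg2 was closest to Igsf1 (0.98), Chgb to Tbc1d8b (0.97), Scg3 to Ccpg1 (0.97) and Scg5 to Gxylt1 (0.91). The likeness was weaker for Pcsk1n, with Cox17 (0.89), for Pam, with Xaf1 (0.81), and for Cpe, with ND5 (0.78). Among the members, Chga and Pcsk1 (0.97) and Chga and Scg2 (0.94) were most alike, while Cpe had an r of -0.10 with Pcsk1 and -0.15 with Chga.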

How the data were processed

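The authors made the deposited intensity values, 1 signal per probe set and array, from Affymetrix scans in the TeraGenomics system (absolute analysis), background-corrected and globally scaled; its version and scaling target are not given in the sources used here. Of the values, 5.36% were below 0. Detection calls were not used here. Probe sets were named through a platform annotation (34945 of 45037 name 1 gene, 932 several and 9160 none), and coordinates and sequences are RefSeq's for GRCm38.p6; 9 of the 10 members, Pcsk2 included and Cpe not, matched a promoter. The members and gene lists were chosen with earlier results of these data known.

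Values under the 20th percentile (12.8) were raised to it. A mean per group was fitted to the log2 values with limma 3.58.1 in R 4.3.3 (eBayes with a trend, 31 residual degrees of freedom), and p values were adjusted over the 44065 probe sets above the floor on at least 1 array. The regression of the methods was run in Python 3.11.15 with numpy 2.4.6 and scipy 1.17.1 on the signals as deposited, with F tests at p under 0.01. Both were tested on simulated data. Differences are given with their SE from the fit. The named genes were the 9 members, the 3 with the largest called difference in each direction on each list, and the 3 most alike to each member, not all of which are described. Alternatives were 2 other floors (10th and 40th percentile), no filter, a filter of 31 arrays, 2 other scalings, eBayes without a trend, a replicate block, the second probe set of Cpe, each array left out, the regression on log2 values or on 60 arrays and, added after the data were seen, 6 of 7 brain arrays high in pituitary hormones left out. The number of arrays limits the precision. Replicate numbers of the 29 groups of 2 arrays were not used to pair samples, except in the replicate block.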

Additional observations from a re-analysis of the deposited data

Results flagged for a closer look

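The differences between strains depended on the region, by the interaction test of limma, for 4 of the 9 genes. The adjusted p was 3.52e-05 for Chga, 0.000431 for Scg5, 0.0018 for Pam and 0.045 for Scg2. Pam in the pituitary gland stood 1.44 ± 0.19 above the hypothalamus on the log2 scale in C3H/HeJ and -0.26 ± 0.19 in A/J. For Scg2 the call was lost without any 1 of 40 of the 61 arrays (adjusted p up to 0.106). It was lost too with the arrays scaled to 1 median (adjusted p = 0.149) and without a trend in eBayes (adjusted p = 0.0808). Without the 6 brain arrays high in pituitary hormones its adjusted p was 0.0941. The 1 group called within a region for Scg2 was FVB/NJ hippocampus, at -0.36 ± 0.09, with 748 and 806, against 806 to 1109 in the other strains. Groups of 2 or 3 arrays are too small to be searched for single outlying arrays.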

How the results depend on the processing

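Of the values of 174 single comparisons, 2 turned their sign while called, both for Cpe after quantile normalization: -0.28 in the pituitary gland (adjusted p = 6.62e-13) and 0.10 in the bnst (adjusted p = 0.000458). The larger moves in the counts of members called follow, and smaller moves are not all listed. Among the smaller ones, Pcsk1n was no longer called in the pituitary gland or the bnst under either of the 2 other scalings. With the arrays scaled to 1 median, 1 gene was lower in the hypothalamus in place of 4, 0 were higher in the pag in place of 1, 3 were higher in the pag than in the bnst in place of 6, 0 were lower in the hypothalamus than in the pag in place of 1, 1 was lower in the pituitary gland than in the hippocampus in place of 0, 4 were higher in DBA/2J in place of 2, 0 in C3H/HeJ in place of 1, and 2 each had a called strain difference in the hippocampus or a called interaction in place of 4. After quantile normalization 1 gene was lower in the pituitary gland in place of 0 (also against the hypothalamus, pag, bnst and hippocampus singly), 1 was higher in the bnst in place of 0, 1 was lower in the hypothalamus and 1 in the pag than in the bnst in place of 0, 2 were higher in the pag in place of 1, and 2 were lower in 129S6/SvEvTac and in C3H/HeJ in place of 1. With only probe sets above the floor on at least 31 arrays, 2 were higher in the pag. Without a trend in eBayes 0 were higher in C3H/HeJ. The limma F tests of Chgb between strains and of the Scg2 interaction were then not called (adjusted p = 0.0765 and 0.0808). With the second probe set of Cpe, 1 gene was higher in the hippocampus and 1 lower in the hypothalamus than in the hippocampus, in place of 2 each.

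With the replicate number as a block (replicate block), 2 genes were higher in the pag in place of 1 and 0 in C3H/HeJ in place of 1. The call of Chgb between the strains was lost there too (limma F test, adjusted p = 0.0841). The deviations of same-numbered arrays correlated with a median r of -0.00464 over 406 pairs of groups, and with r from -0.416 to 0.412. Of these pairs 78 were over 0.1, and so were 12 of the 56 pairs of groups of 1 strain. Whether arrays of a strain shared mice between regions was not tested. Without 6 of the 7 brain arrays high in pituitary hormones, chosen after seeing the data, 2 genes were lower in 129S6/SvEvTac and in C3H/HeJ in place of 1, 0 were higher in C3H/HeJ in place of 1, 2 were higher in FVB/NJ in place of 1, and 1 was lower in the hypothalamus than in the hippocampus in place of 2. With 1 array left out in turn, the genes higher in the pag ran between 1 and 2, those lower in the pituitary gland than in the hippocampus between 0 and 1 (1 without the first C57BL/6J hippocampus array), those lower in 129S6/SvEvTac and in C3H/HeJ between 1 and 2, those higher in C3H/HeJ between 0 and 1, and those higher in FVB/NJ between 1 and 2 (2 without the first FVB/NJ bnst array). With 2 arrays in most groups, 31 of the 57 calls of a strain within a region were lost when 1 array was left out.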
